A study of Danio rerio with 8 samples.

Results

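The keratin and claudin genes of sorted zebrafish hindbrain neurons are described here across libraries of *phox2a* null larvae and their siblings. They are the rows of the deposited count table whose gene symbol starts with krt, cyt1 or cldn, which are 58 of 28802 genes: 23 keratins, 32 claudins and 3 genes that match by name only (*krtcap2*, *cldnd1a* and *cldnd1b*). These genes were picked because skin genes had been seen at high levels in 1 library of each genotype, so they were chosen by the values described here, and how they rise and fall between these libraries is a description and not a test.

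Each library held neurons harvested from many pooled larvae at 72 to 74 hpf and sorted for green fluorescence after dead cells were gated out with DAPI. Siblings carried *phox2a*+/+ or +/- and were combined, and null larvae carried *phox2a*-/- and were recognized by the loss of isl1:GFP fluorescence in the oculomotor and trochlear nuclei. Both genotypes carried the reporter Tg(isl1:GFP) and the reporter Tg(UAS:E1b-Kaede), which is switched on by the driver Tg(-6.7Tru.Hcrtr2:GAL4-VP16), on a mifta-/- background without pigment. The sort did not separate Kaede from GFP, the driver line also labels neurons outside the tangential nucleus, and the study used 3 mutant alleles without naming the allele of a library. In 4 experimental repeats, 1 library was made per genotype. The table gives a run code in place of a repeat number, and the repeats are called A to D in the order of these codes. A library is named by its genotype and repeat, such as sibling A or null C. The 3 libraries per genotype of repeats A to C are the ones compared.

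Keratins are the intermediate filament proteins of epithelia, in which a type I keratin pairs with a type II keratin to build the filaments that span skin cells. In zebrafish larvae they are abundant in the periderm, the outer layer of the epidermis, and in the basal layer below it. Claudins are membrane proteins of the tight junction that seal the space between epithelial cells or let selected ions through. Some members serve elsewhere, such as claudins of the blood vessel wall and of myelin.

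The 6 libraries of repeats A to C had 9579375 to 19968857 reads on genes. Levels are given as counts-per-million gene reads (CPM). The floor, what 3 reads come to when none was counted, lay between 0.150 and 0.313 CPM and takes in counting error alone. Null C stood apart: 62.4% of its listed reads were not aligned, against 11.8% to 16.1% in the other 5, and it had reads on 11087 genes, against 16675 to 18409. The 3 sibling libraries had 222 to 493 CPM of *phox2a* and the 3 null libraries 66.2 to 185 CPM, so the groups did not overlap. Neuronal markers, 11 genes from *elavl3* to *gap43*, summed to 14509 to 22686 CPM, and each of the 11 was above the floor in each of the 6 libraries.

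Keratin reads were unequal between libraries of the same genotype. The 23 keratins summed to 3500 CPM in sibling A, 14.0 CPM in sibling B and 296 CPM in sibling C. In null libraries they summed to 109 CPM in null A, 3.50 CPM in null B and 3080 CPM in null C. The highest library was a sibling library and the next a null library, the lowest was a null library, and the genotypes overlapped. The highest sum was 1001 times the lowest. Within repeat A the sibling library held 32.2 times the level of the null library, and within repeat C the null library held 10.4 times the level of the sibling library, so the repeats ran in opposite directions. At its highest, in sibling A, this was 0.350% of gene reads, and in null C 0.308%. In a bulk library, fewer cells of a type and less RNA per cell cannot be told apart.

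The order of the highest 2 libraries depended on the scaling. After TMM scaling, in which the factor of null C was 0.518, the keratins summed to 3011 CPM in sibling A and 5950 CPM in null C. Scaled to all listed reads, including those that were not aligned, these levels were 2048 and 483. In each of these scalings both libraries stayed above the other 4, the highest of which was 266 by TMM and 154 on listed reads. Repeat D, which played no part in the choice of genes, had 15865368 gene reads in its sibling library and 735217 in its null library, and 40.5% and 95.4% of their reads were not aligned. Reads fell on 6211 genes in sibling D and 2214 in null D, against 11087 to 18409 in the libraries of repeats A to C. Repeat D held 1 keratin read in each library, a *krt4* read, and at these depths 1 read allows at most 0.351 and 7.58 CPM (exact 95% limits). These limits take in counting error alone. The paper left out 1 of its 4 repeats because it varied more along the leading principal components. It gave poor quality with very low counts as the likely reason. The labels do not tie that repeat to a run code.

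Claudins were more even. The 32 claudins summed to 281, 215 and 367 CPM in siblings A, B and C. In the null libraries they summed to 162, 90.0 and 468 CPM. The highest and lowest sums were both in null libraries and differed 5.203 times, so per gene read the sibling range lay inside the null range. By TMM the sums were 242, 177 and 330 in siblings and 146, 81.5 and 904 in null libraries, and the genotypes overlapped as well. On all listed reads the claudins came to 164, 126 and 191 in siblings and 88.1, 40.3 and 73.4 in null libraries, and the genotypes did not overlap, with siblings higher. That scaling lowers every gene of null C most, since 84.3% of its listed reads were on no gene, against 41.2% to 55.2% in the rest. The share of all genes that part in this way on listed reads was not counted. The sums hid exchanges of members: 16, 13 and 12 of the 32 claudins were above the floor in the sibling libraries and 11, 8 and 7 in the null libraries. Null C, which had the fewest, had the largest sum per gene read and the lowest but one on all listed reads.

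**Figure D1:**
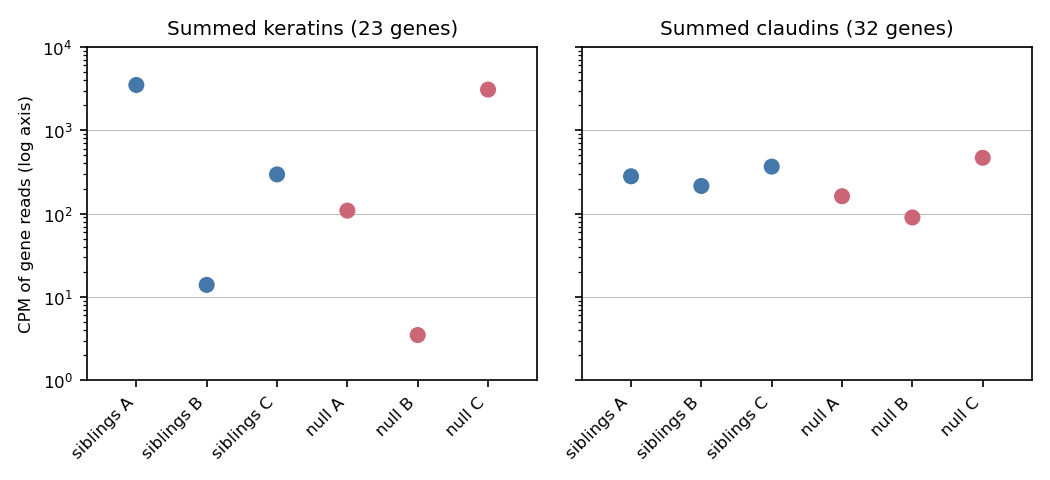
Summed CPM of the 23 keratins (left) and the 32 claudins (right) in each of the 6 libraries on a log axis; each point is 1 library, blue for siblings and red for *phox2a* null. The keratin sums run from 3.50 to 3500 CPM with a library of each genotype at the top, and the claudin sums from 90.0 to 468 CPM.

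Most members were read in some libraries and absent from others. Of the 58 members, 47 had at least 1 read in the 6 libraries and 11 had none. Among the 29 members with at least 100 reads in some library, 25 (86.2%) had 0 reads in another, against 40.2% of the 14397 genes of the whole table with that many reads. Members with at least 10 reads in each of the 6 libraries numbered 3 of 58 (*cldn12*, *cldnd1a* and *krtcap2*), against 7033 of 28802 genes. No keratin was among them. The members were picked because skin genes were high in 1 library of each genotype. They were not matched with other genes for level, so nothing is read from either difference.

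The type II keratins come first. *krt4*, a keratin of the superficial epidermis, had 2945, 1.36 and 165 CPM in siblings A, B and C. In the null libraries it had 7.24, 0.26 and 1510 CPM. *krt4* was high in sibling A and null C, intermediate in sibling C and low elsewhere. It held 84.1% of the keratin reads in sibling A, 55.8% in sibling C and 49.0% in null C, and 6.66% to 9.70% in the other 3. Without *krt4* the keratins still summed to 556, 12.6 and 131 CPM in siblings and 102, 3.23 and 1570 CPM in null libraries, and null C was then the highest.

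*krt8*, which pairs with *krt18* proteins in simple epithelia, had 17.0, 0 and 22.2 CPM in siblings. In null libraries it had 0.29, 0.07 and 283 CPM. Its high level was that of null C, while in sibling A, where *krt4* was highest, *krt8* was at the level of sibling C. *krt5*, in mammals the type II keratin of basal epidermis, had 80.2, 0 and 6.65 CPM in siblings and 61.4, 0.07 and 3.76 CPM in null libraries. It was high in both libraries of repeat A, whichever the genotype, and it alone made 56.4% of the keratin reads in null A. In the RefSeq annotation of the GRCz12tu assembly, which was used for the order of protein-coding genes only, *krt5* and *krt8* are next to each other. The 2 neighbours had opposite high libraries in the null group.

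The type I keratins followed *krt4* in part. *cyt1*, a type I keratin of the enveloping layer and the periderm, had 176, 7.04 and 17.9 CPM in siblings. In null libraries it had 0.41, 0 and 875 CPM. The libraries of repeat A differed 426 times with siblings higher, and those of repeat C 48.9 times with the null library higher. For every 100 *krt4* reads there were 5.97 *cyt1* reads in sibling A, 10.8 in sibling C and 57.9 in null C, so the keratin mixtures of these 3 libraries were not the same.

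*cyt1l*, its neighbour in the annotation, had 97.7, 0.31 and 11.2 CPM in siblings and 0, 0 and 77.8 CPM in null libraries. *krt17* had 54.7, 0 and 27.01 CPM in siblings and 0, 0 and 127 CPM in null libraries. *krtt1c19e*, known in zebrafish as a keratin of basal keratinocytes, had 72.9, 0.10 and 12.6 CPM in siblings and 0, 0 and 40.0 CPM in null libraries. These 3 genes shared 1 pattern: they were highest in the 3 libraries in which *krt4* was highest, and had 0 reads in null A and B. They belong to a run of 7 keratin genes without another protein-coding gene between them (*krt1-19d*, *krtt1c19e*, *krt92*, *cyt1l*, *cyt1*, *krt17* and *krt91*). Reads without a unique alignment were listed apart from the genes, so similar neighbours could lose reads, and each single value in the run is uncertain. The run as a whole summed to 406, 7.71 and 70.5 CPM in siblings and 3.18, 0.66 and 1121.8 CPM in null libraries.

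*krt15*, a type I keratin that marks basal epidermis in mammals, had 0.40, 4.64 and 0 CPM in siblings and 0, 0 and 116 CPM in null libraries. It was thus nearly absent from sibling A, where *krt4* was highest. In sibling B, with 268 keratin reads in all, *cyt1* made 50.4% of them and *krt15* 33.2%. *krt97* and *krt222* were added after their values were seen. *krt97* had 26.3, 0 and 1.18 CPM in siblings and 0, 1.12 and 45.3 CPM in null libraries. *krt222* had 16.9, 0 and 16.6 CPM in siblings and 27.5, 0.07 and 0 CPM in null libraries, and was at 0 in null C, where the summed keratins reached 3080 CPM. The other 13 keratins peaked at 10.9 CPM or less, and 3 of them had no read.

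**Figure D2:**
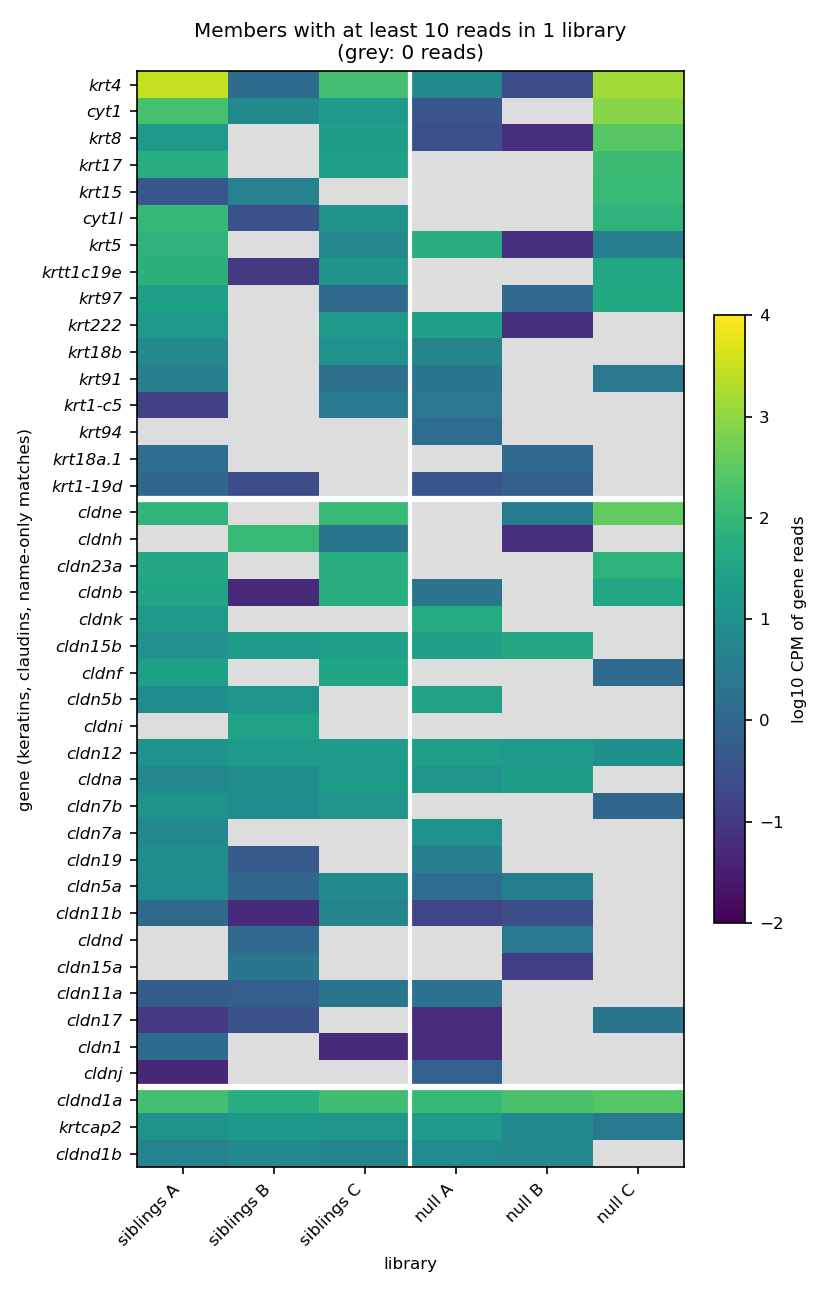
Level of each member with at least 10 reads in 1 of the 6 libraries, as log10 CPM by color, in the 3 sibling and the 3 null libraries; grey cells had 0 reads. White lines part keratins (top), claudins (middle) and the name-only matches (bottom). *krt4* reaches 2945 CPM and 1510 CPM in 1 library of each genotype, and *cldnd1a* has reads in all 6 libraries.

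**Figure D3:**
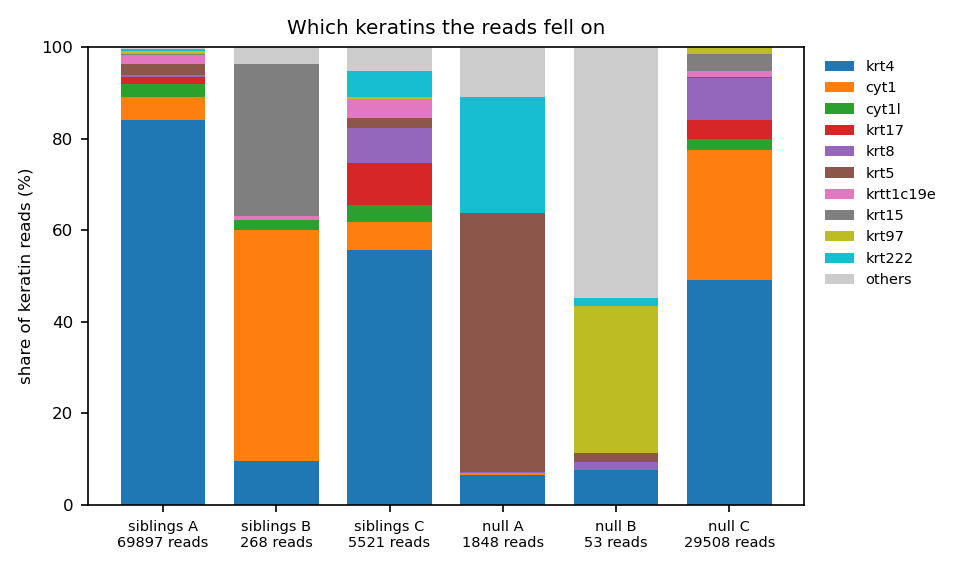
Share of keratin reads, in percent, that fell on each of 10 keratins and on the others, by library; the number of keratin reads is under each bar. Shares of a gene compare between libraries and not between genes, since reads also depend on transcript length. *krt4* takes 84.1% in sibling A, and *krt5* 56.4% in null A.

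The claudins fell into several patterns. *cldne*, a claudin of the enveloping layer in zebrafish, had 83.9, 0 and 115 CPM in siblings. In null libraries it had 0, 3.17 and 338 CPM. *cldn23a* had 42.8, 0 and 58.2 CPM in siblings and 0, 0 and 75.6 CPM in null libraries. *cldnb*, whose promoter is used to label the lateral line primordium and the skin, had 33.4, 0.05 and 62.0 CPM in siblings and 1.88, 0 and 39.5 CPM in null libraries. These 3 claudins were highest in the 3 libraries in which *krt4* was highest, but not in proportion to it: per 100 *krt4* reads there were 2.85 *cldne* reads in sibling A, 69.4 in sibling C and 22.4 in null C.

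*cldnf*, the neighbour of *cldne*, had 25.1, 0 and 35.9 CPM in siblings and 0, 0 and 1.25 CPM in null libraries. Per 100 *cldne* reads there were 29.9 and 31.3 *cldnf* reads in siblings A and C but 0.370 in null C. The corresponding numbers for *cldn23a* were 51.0, 50.8 and 22.3. For *cldnb* they were 39.7, 54.1 and 11.7. The ratios of *cldnf* and *cldn23a* to *cldne* were thus close in siblings A and C and that of *cldnb* less so, and each was lowest in null C.

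2 claudins were high in sibling B, where keratins summed to 14.0 CPM. *cldnh* had 0, 112 and 2.14 CPM in siblings and 0, 0.07 and 0 CPM in null libraries. *cldni*, added after its values were seen, had 0, 28.1 and 0 CPM in siblings and no read in the null libraries. Nearly every read of these genes came from 1 library.

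A further group was read widely and was missing from null C. *cldn15b*, whose mammalian relative forms sodium channels in the gut, had 11.02, 19.3 and 26.7 CPM in siblings and 27.5, 40.9 and 0 CPM in null libraries. *cldna*, added after its values were seen, had 6.26, 8.55 and 18.5 CPM in siblings and 13.4, 21.6 and 0 CPM in null libraries. In the other 5 libraries these levels ranged over less than those of *krt4*, and the library with 468 CPM of claudins in all had none of either. *cldn12* was the claudin with at least 10 reads everywhere: it had 11.2, 18.4 and 20.7 CPM in siblings and 24.5, 16.9 and 10.4 CPM in null libraries, a range of 2.35 times in which the genotypes overlapped.

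*cldn7b*, the zebrafish relative of a claudin that binds EpCAM in mammals, had 12.7, 8.50 and 13.3 CPM in siblings. In null libraries it had 0, 0 and 0.94 CPM. Its 3 sibling libraries were all above its 3 null libraries, which was true of 1 of the 25 members tested for a genotype difference, against 9.59% of the 14824 genes tested. No member had the 3 null libraries above the 3 sibling libraries (1.66% of all genes). *epcam*, the adhesion gene itself, had 91.5, 53.9 and 177 CPM in siblings and 14.9, 0.40 and 2.92 CPM in null libraries. It was chosen after its values were seen, and in repeats A to C its groups did not overlap either. In repeat D *epcam* ran the other way, at 0.32 CPM (5 reads) in the sibling library and 135 CPM (99 reads) in the null library. *cdh1*, from the same adhesion list, had 16.4, 7.09 and 5.79 CPM in siblings and 2.06, 17.3 and 187 CPM in null libraries, with overlapping groups.

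Claudins of vessels and of glia formed the last group. *cldnk*, a claudin of zebrafish myelinating glia, had 18.2 CPM in sibling A and 45.8 CPM in null A, and 0 reads in the other 4 libraries. *cldn19*, in mammals a claudin of Schwann cells and kidney, had 9.87, 0.52 and 0 CPM in siblings and 3.83, 0 and 0 CPM in null libraries. Both were highest in the libraries of repeat A. The 7 myelinating glia markers summed to 520, 546 and 685 CPM in siblings and 1316, 716 and 424 CPM in null libraries. The myelin gene *mbpa* was at 126, 0 and 0 CPM in siblings and 427, 9.83 and 0 CPM in null libraries. *sox10* was at 7.46, 0.05 and 0 CPM and 13.5, 0.40 and 0 CPM, and *plp1a* and *olig2* were also highest in null A. Others were not confined to repeat A. *plp1b* had 229 to 627 CPM in each of the 6 libraries. *mbpb* had 151, 92.3 and 167 CPM in siblings and 265, 78.1 and 42.7 CPM in null libraries. *mpz* had 0.95, 5.42 and 8.20 CPM in siblings and no read in null libraries. The part of glial cells in the *cldnk* reads was not tested.

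*cldn5b*, a claudin of zebrafish brain vessels, had 8.46, 13.8 and 0 CPM in siblings and 28.8, 0 and 0 CPM in null libraries. *cldn5a*, which in zebrafish seals the lining of the brain ventricles, had 8.26, 0.99 and 7.40 CPM in siblings and 1.41, 3.83 and 0 CPM in null libraries. The 6 endothelial markers summed to 0.16 to 2.35 CPM in the 6 libraries, with *egfl7* at 0 in each, and *kdrl* had reads in sibling A alone. *cldn5b* was thus read in 3 libraries, in 2 of which no endothelial marker was above the floor. *cldn11a* had 0.60, 0.63 and 2.14 CPM in siblings and 1.77, 0 and 0 CPM in null libraries. *cldn11b*, like it related to a mammalian myelin claudin, had 1.202, 0.05 and 5.31 CPM in siblings and 0.18, 0.26 and 0 CPM in null libraries. The other 16 claudins peaked at 11.9 CPM or less, and 8 of them had no read in the 6 libraries.

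The genes that match by name only behaved differently from the keratins. *cldnd1a*, which encodes a protein related to claudins, had 160, 54.4 and 148 CPM in siblings. In null libraries it had 103, 190 and 257 CPM, with overlapping groups and a range of 4.73 times. *cldnd1b* had 4.56, 7.19 and 5.09 CPM in siblings and 7.65, 6.66 and 0 CPM in null libraries. *krtcap2*, a subunit of the enzyme that attaches sugars to proteins in mammals, had 11.8, 15.7 and 13.8 CPM in siblings and 20.5, 7.13 and 2.71 CPM in null libraries. Its lowest level was in null C.

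Markers of the epidermis moved with the keratins in part. Of 12 listed periderm genes 10 were in the table, and they summed to 516, 29.8 and 725 CPM in siblings and 10.7, 10.6 and 1614 CPM in null libraries. All 10 were above the floor in siblings A and C, and 5 in null C. There, 964 CPM came from *icn* and 626 CPM from *icn2*, S100 proteins of fish skin, while *elf3*, an epithelial transcription factor, had 0.10 CPM, against 31.3 CPM and 113 CPM in siblings A and C. The plakins *evpla* and *ppl*, which tie keratin filaments to cell junctions, had 46.3 and 37.6 CPM in sibling A and 2.71 and 3.44 CPM in null C.

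The sum of the basal epidermis markers did not follow *krt4*, while single markers differed. The 7 of 8 that were in the table summed to 23.1, 19.5 and 19.5 CPM in siblings and 17.5, 28.0 and 12.1 CPM in null libraries, and *tp63*, which defines basal keratinocytes, was at 0 in null C. *fras1* was the largest part of the sum in each library but null C. *col17a1b* was highest in null C and sibling A, at 4.07 and 2.15 CPM, and at most 0.47 CPM elsewhere. *itga6b* had 8.47 CPM in sibling C and 7.20 CPM in null C, but 0 in sibling A. *col17a1a* and *itgb4* were highest in null B. Of 6 ionocyte genes *ca15a* and *trpv6* were at 0 in all 6 libraries, and *atp1b1b* gave most of the list's 110 to 243 CPM. The mucous cell list summed to 0 to 4.71 CPM. Both of these sums were highest in null A, that of the ionocytes through *atp1b1b*. The other ionocyte genes with reads peaked elsewhere. *slc12a10.2* had 10.1 CPM in null C and at most 0.63 CPM in the rest, *foxi3a* had 6 reads, all in null C, and *foxi3b* was highest in sibling A, at 0.40 CPM. Otic epithelium and hair cell markers, a tissue near the harvested nucleus, summed to 17.7, 35.1 and 32.7 CPM in siblings and 109, 33.9 and 98.3 CPM in null libraries. Of the 9 markers 8 were above the floor in null A and 4 in null C, where 91.3 CPM came from *pvalb9*. Muscle markers were highest in null A and C, at 75.1 and 44.2 CPM, and were 1.12 to 23.6 CPM elsewhere. The part of epidermal or other cells in the keratin reads was not tested.

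**Figure D4:**
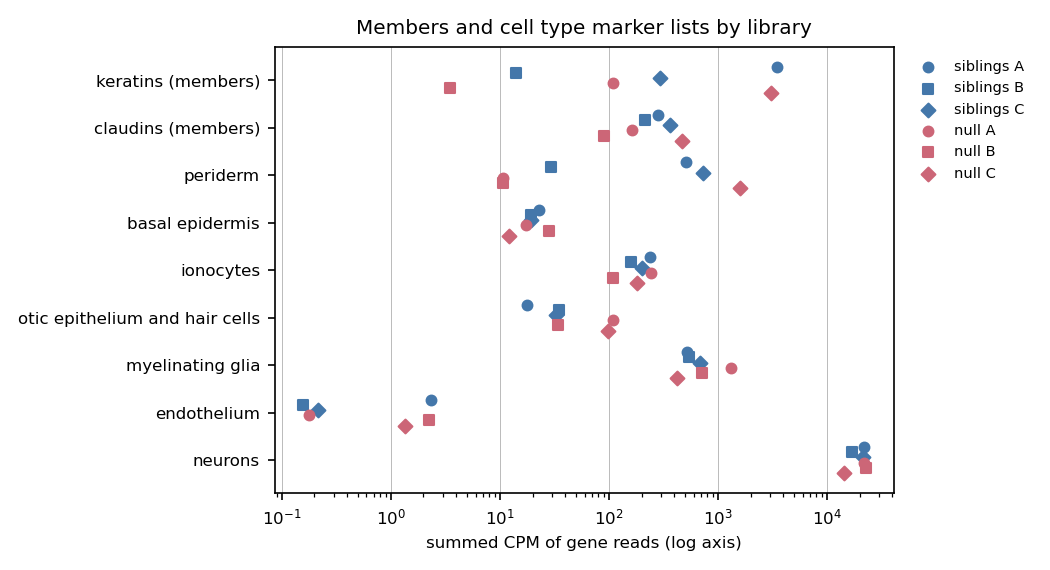
Summed CPM on a log axis of the keratins, the claudins and 7 cell type marker lists; each symbol is 1 library, blue for siblings and red for *phox2a* null, with circles, squares and diamonds for repeats A, B and C. Periderm markers span 10.6 to 1614 CPM, basal epidermis markers 12.1 to 28.0 CPM and neuronal markers 14509 to 22686 CPM.

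The summed partner genes of keratins and claudins were less unequal between libraries than the summed keratins. The 16 desmosome and plakin genes in the table summed to 266, 85.7 and 134 CPM in siblings and 91.0, 108 and 94.0 CPM in null libraries. In null C, 64.6 of these 94.0 CPM fell on *pleca*. *jupa*, *pkp3b* and *perp* were at 0 there, while *pkp3a* was highest there, at 11.8 CPM. Single genes could be less even than the sum: *evpla* had 46.3, 0 and 29.5 CPM in siblings and 1.35, 0 and 2.71 CPM in null libraries. The 20 other tight junction genes, among them occludins, *tjp1a* and the junctional adhesion molecules, summed to 439, 302 and 566 CPM in siblings and 282, 373 and 664 CPM in null libraries. In null C, 483 of these 664 CPM fell on *jam3a*, and *oclnb*, an occludin, was at 0. *oclnb* had 40.3 CPM in sibling A, 6.003 CPM in sibling C and 0 reads in the other 4. The 13 genes of epithelial adhesion and transcription summed to 237, 106 and 460 CPM in siblings and 24.5, 61.3 and 240 CPM in null libraries, and 187 of the 240 CPM were from *cdh1*.

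Across the 6 libraries, 11417 genes had a mean of at least 5 CPM. The gene whose log2(CPM + 1) was most like the summed keratins was *krt4*, at a Pearson r of 0.98 over 6 libraries, which is one of its own parts. The 10 non-members most like it were *map1b*, *atg16l1*, *si:dkey-178k16.1*, *reep5*, *stom*, *scn8aa*, *glrbb*, *oxct1a*, *nefma* and *avl9*, at r of 0.94 to 0.98, and none is on the epidermal lists. Their highest level was 1.87 to 8.83 times their lowest, against 1001 times for the keratins. In all, 45 of the 11417 genes (0.394%) had r over 0.9, and 4 of the 24 members at this level did: *krt4*, *cyt1l*, *krtt1c19e* and *krt17*. These 4 are parts of the sum they were compared with, so nothing is read from their share. All points share the same 6 libraries.

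The study asked whether these neurons differ between *phox2a* null larvae and siblings. In edgeR's quasi-likelihood test over all 14824 genes with enough reads, 0 genes (0%) had an adjusted p under 0.05 with a log2 fold change over 2 in size, and 477 (3.22%) had an unadjusted p under 0.05. Of the 58 members 25 passed the filter on low counts, namely 11 keratins, 11 claudins and the 3 name-only matches. None of the 25 was called or had an unadjusted p under 0.05. DESeq2 called 128 of 21539 genes (0.594%) and 0 of 36 members. It gave no p-value for *krt4*, *cyt1*, *krt8* or *cldne*, among others, so these were not among the 36. Some of the 36, such as *krt94* and *cldn1*, had no adjusted p and could not be called, and the 21539 genes include such genes. Since no gene was called by edgeR, none of the desmosome, tight junction or adhesion genes was. The libraries of a group are experimental repeats that also differed in the number of larvae and sorted cells, so the p-values measure the spread between these libraries.

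The fold changes of the members had wide errors. The SE was derived as the size of the fold change over the square root of the F statistic of the quasi-likelihood test. *krt4* differed by a log2 fold change of 0.13 ± 2.59 (SE, n = 3 per genotype, null over siblings, edgeR adjusted p = 1.00), and the sign turned to -0.0082 when low counts were not filtered. *cyt1* had 3.29 ± 2.76 and *krt8* 3.99 ± 2.85, both with an adjusted p of 1.00 in edgeR. The highest library of both genes was null C. Among claudins, *cldne* had 1.91 ± 2.67 and *cldn23a* 0.71 ± 2.74, again with an edgeR adjusted p of 1.00, and *cldnh* did not pass the filter. The lowest unadjusted p-values among the members, all with an edgeR adjusted p of 1.00, were those of *cldn7b*, *cldnd1a*, *cldnf* and *krt8*. *cldn7b* had a log2 fold change of -4.14 ± 2.27 (unadjusted p = 0.11), *cldnf* -4.56 ± 2.82 (0.14), *cldnd1a* 1.28 ± 0.77 (0.13) and *krt8* an unadjusted p of 0.20. The median log2 fold change was 0.42 over the 11 keratins and 0.13 over the 11 claudins, against -0.15 over all genes tested. Of the 25 members 15 were higher in null libraries, and 7 were when the repeat was added to the edgeR fit as a block. The share of all genes higher in null libraries was not counted, so nothing is read from these counts.

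**Figure D5:**
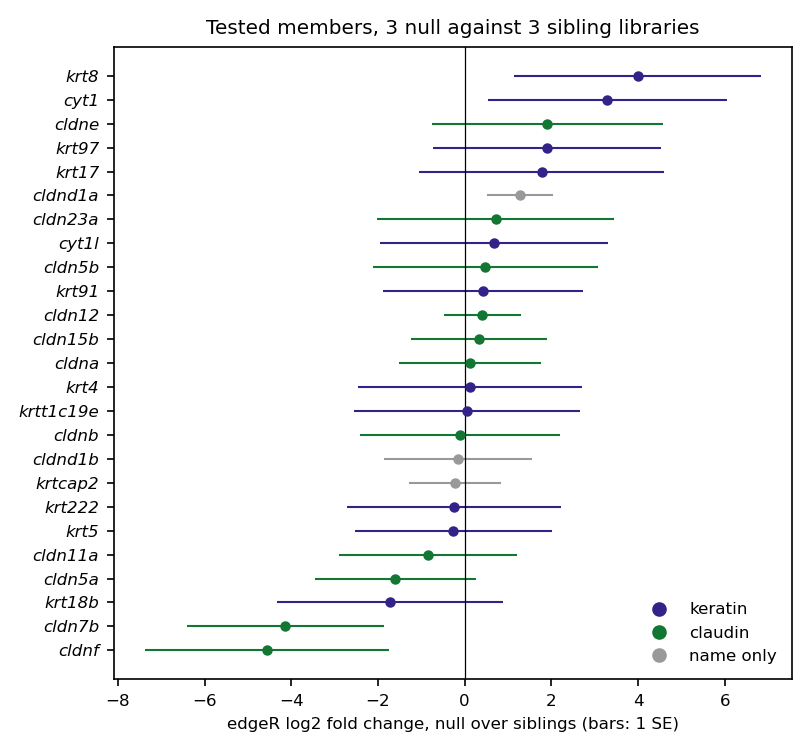
edgeR log2 fold change of the 25 tested members, null over siblings, with bars of 1 SE (derived from the F statistic), from 3 libraries per genotype. Blue marks keratins, green claudins and grey the name-only matches. The values run from -4.56 for *cldnf* to 3.99 for *krt8*, and none had an unadjusted p under 0.05.

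These values rested on single libraries. Without null C the median of the keratins was -2.56, and 9 of 34 members (5 keratins and 4 claudins) had an unadjusted p under 0.05, all lower in null libraries, against 2.32% of all genes in this direction. The genes were picked by the skin genes of that library and of sibling A, so leaving out either fixes the direction of the keratin median. Of the 4 claudins, *cldn7b* and *cldnf* were lower in null libraries with null C as well (log2 fold change -4.14 and -4.56). *cldnh* had no read in null C. In null A and B, *krt17*, *krtt1c19e*, *cyt1l*, *cldn23a*, *cldnf* and *cldn7b* had no read, and *cldnh* had 1. Without null C these genes thus passed the filter through sibling libraries alone, which fixed their direction. For this reason, and since the genes were picked on these libraries, nothing is read from the count or from these directions. Without sibling A the keratin median was 2.79. With the repeat as a block, edgeR again called no gene. DESeq2 with the block called 2 of 47 members, both with a fold change below 0 (0.802% of all genes in this direction). The members were picked on these libraries and this setting was chosen after seeing the data, so nothing is read from this count either. Some of the 47, such as *krt94* and *cldn11a*, had no adjusted p and could not be called. In this DESeq2 fit *cldn7b* had a log2 fold change of -7.75 with an adjusted p of 0.011, and *cyt1* -7.09 with an adjusted p of 0.017. The sign of *cyt1* was opposite to that in edgeR without the block. By CPM *cyt1* was not lower in each null library: it had 875 CPM in null C, against at most 176 CPM in siblings.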

How the data were processed

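Sorted hindbrain neurons gave 8 bulk RNA libraries (4 per genotype), made with a low-input SMART-Seq HT kit that is not stated to keep strand. The authors deposited whole-number counts of reads per gene, after alignment to GRCz11 plus Kaede and GFP; the aligner and counter are not given in the sources used here, and DESeq2 is named in the submitters' processing notes. Their normalized table was not used. Rows that name no gene (41.2% to 98.1% of listed reads) stayed out of library sizes and tests. Column names carry genotype and run code, not replicate number.

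The members and lists were chosen with earlier results of these data known. CPM was taken over gene reads (9579375 to 19968857 in the 6 libraries compared). For repeats A to C, null and sibling libraries were tested against each other in edgeR 4.0.16 (filterByExpr, TMM, glmQLFit, glmQLFTest) with Benjamini-Hochberg adjustment over all genes, without a block, since the study's methods name none. Alternatives were DESeq2 1.42.0, RLE factors, other filters, the run code as a block, all 4 repeats, other scalings of the sums and leaving out each library. R 4.3.3 and Python 3.11.15 were used, and the fit was tested on simulated data. Intervals are exact binomial and cover counting error only.

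The pairing of genotypes within a repeat comes from the study's design. When each library was set against the mean of its genotype, the deviations of both libraries of a repeat correlated at 0.027, 0.082 and 0.050 in repeats A, B and C (14824 genes).

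Named members were the 8 keratins and 8 claudins with the highest CPM in 1 library, members with at least 10 reads in each of the 6, endothelial and glial claudins, name-only matches and called members. Folds were printed for the 3 highest keratins, the 3 highest claudins and the 4 members with the lowest p. The order of protein-coding genes came from RefSeq (GRCz12tu, 57 of 58 members matched).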

Additional observations from a re-analysis of the deposited data

Results flagged for a closer look

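In the libraries of repeat D, which entered the alternative with all 4 repeats alone, 3 claudins were above their level in siblings A, B and C. The share of all genes above siblings A to C in this way was not counted. Reads fell on only 6211 genes in sibling D and 2214 in null D, so nothing is read from the number of claudins. *cldn12* had 350 CPM (5552 reads) in sibling D, against 10.4 to 24.5 CPM in the 6 libraries of repeats A to C, and these reads were nearly all of that library's 5568 claudin reads. *cldn17* had 1438 CPM (1057 reads) in null D, which had 735217 gene reads, against at most 2.09 CPM in the 6 libraries. *cldn10b* had 0.82 CPM (13 reads) in sibling D, against 1 read in the 6 libraries together. The same 2 libraries held 1 keratin read each.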

How the results depend on the processing

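The count of genes called between genotypes was 0 in edgeR with either scaling, either other filter, the replicate block (101 genes at an unadjusted p under 0.05) or any library left out, but 40 with all 4 repeats, 128 with DESeq2 and 287 with DESeq2 and the replicate block, a setting chosen after seeing the data. The count of members called was 0 in each of these except the last, with 2, but DESeq2 without the block gave no p-value for *krt4*, *cyt1*, *krt8* or *cldne*. In both DESeq2 fits some other members had no adjusted p and could not be called. The median log2 fold change of claudins moved from 0.13 to -2.36 with the block in edgeR, and that of keratins to -1.68. With 1 library left out at a time the keratin median ranged from -2.56 to 2.79 and the claudin median from -0.80 to 0.58. With at least 10 reads required in every library no keratin was left to test. With the block, *krt4* turned to -2.18 in edgeR and -2.18 in DESeq2, *cyt1* to -6.05 and -7.09, and *cldn23a* to -2.73 and -0.88, and without a filter *krt4* turned to -0.0082. With 1 library left out, the log2 fold change ranged from -8.05 to 3.63 for *krt4*, from -8.20 to 5.60 for *cyt1*, from -6.10 to 4.56 for *krt8*, from -5.36 to 2.52 for *cldne* and from -12.26 to 1.32 for *cldn23a*, in each case lowest without null C. The cause was not tested. Of 90 fold values under alternatives for 8 genes, 75 kept their direction and their side of the threshold. The depth of null C, 9579375 gene reads, limits zeros there to 0.313 CPM by counting error alone. Of its listed reads 62.4% were not aligned, and it had reads on 11087 genes, fewer than the other libraries of repeats A to C.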
